A study of Mus musculus with 24 samples.

Results

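The change in double-stranded RNA recovery between 2 treatments of a mouse mammary tumour is described here, the combination of ORIN1001 and docetaxel against docetaxel alone. ORIN1001 inhibits the RNase of IRE1α, an endoplasmic reticulum stress sensor, and was given by oral gavage at 150 mg/kg every day. Docetaxel, a taxane that stabilises microtubules, was injected into the peritoneum at 10 mg/kg every week. The tumours were of the 2153L line, a triple-negative mammary model from a genetically engineered mouse that lacks p53. Fragments were grown in cleared mammary fat pads of female BALB/c mice aged 6 to 8 weeks at surgery, and treatment began when tumours reached about 100 mm3. All tumours, controls included, carried the p53 deletion, and mice on 1 drug also received the vehicle of the other. RNA of bulk tumour, with its stroma and immune cells, gave an input library and a J2 library, made from the RNA that the dsRNA antibody J2 precipitated. The members were chosen by label: 12 of the 24 libraries, from 6 of the 12 tumours, with 3 tumours on the combination and 3 on docetaxel. The other 6 tumours, 3 on ORIN1001 and 3 on vehicle, entered the fit to estimate the spread and the response to ORIN1001 without docetaxel.

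J2 binds long RNA duplexes irrespective of their sequence. In mammalian cells such duplexes form when both strands of the mitochondrial genome are transcribed, when repeats such as SINE, LINE and LTR copies lie inverted in 1 transcript or are read from both strands, and when sense and antisense transcripts pair. Sensors such as MDA5 and PKR in the cytosol and TLR3 in endosomes respond to them, while ADAR editing and RNA decay limit them. The measure throughout is the log2 ratio of J2 to input CPM (counts scaled to library size) within a tumour, called the J2/input ratio, and its change is the combination ratio less the docetaxel ratio. A positive change means that a gene made up more of the J2 library, relative to its input, in combination tumours than in docetaxel tumours.

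The libraries themselves differed. Combination J2 libraries held 2.54 to 11.04 M gene counts and their inputs 11.9 to 15.7 M, while docetaxel J2 libraries held 6.69 to 18.7 M and their inputs 3.27 to 63.3 M. Nuclear ribosomal RNA (rRNA) loci took 37.9%, 56.6% and 22.7% of gene counts in the combination J2 libraries and 3.14%, 1.25% and 13.8% in the docetaxel J2 libraries. In the inputs that share was 1.29%, 2.86% and 1.09% in combination tumours and 0.563%, 0.757% and 67.1% in docetaxel tumours. Docetaxel tumour 3 therefore stands apart: its input was the shallower of its pair, was mostly rRNA and had 10 or more counts in 8896 genes. It was also the only one of the 12 tumours with a higher rRNA share in the library labelled input than in that labelled J2. Whether the 2 labels of this tumour were crossed was not tested; if they were, each of its J2/input ratios would have the opposite sign and the changes over all 3 docetaxel tumours would differ. Results below are given with all 3 docetaxel tumours, as labelled, and then without docetaxel 3. The part that rRNA content and depth play in any result was not tested. Trp53, which the model lacks, still had 20.9 to 35.7 CPM in combination inputs and 36.0 to 43.9 CPM in docetaxel inputs, and counts over the whole gene cannot show which exons were deleted.

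**Figure D1:**
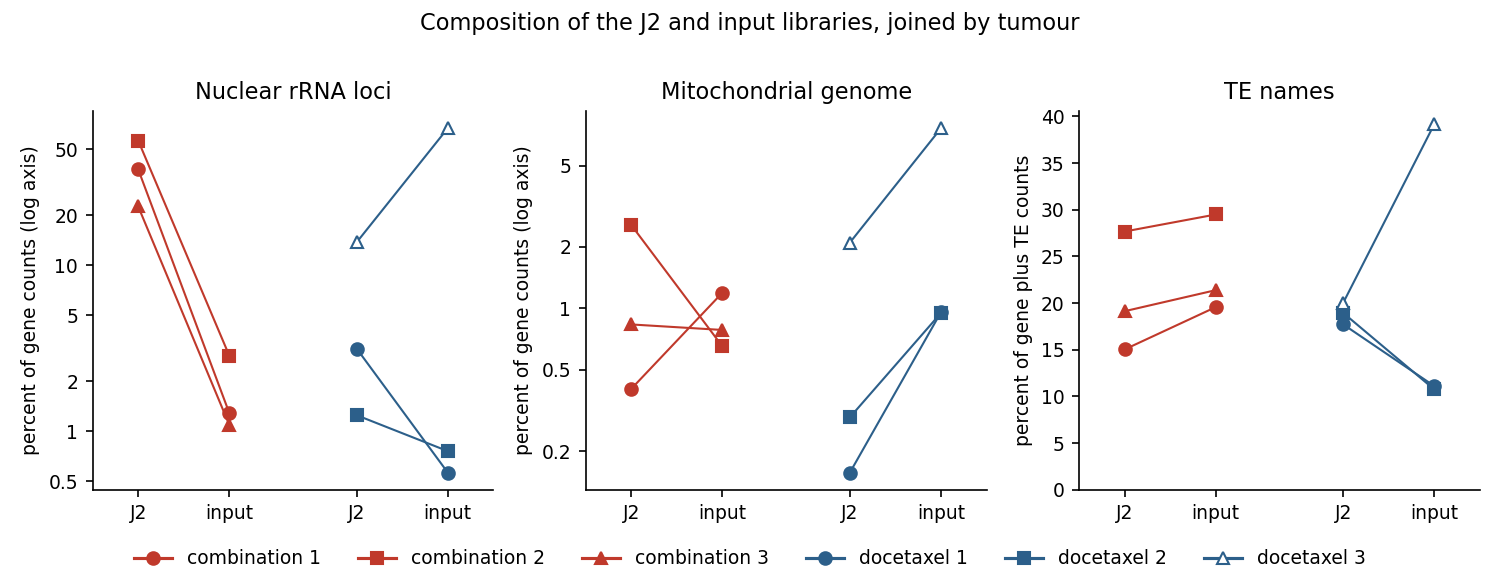
Share of each J2 and input library held by nuclear rRNA loci and the mitochondrial genome (percent of gene counts, log axes) and by transposable element (TE) names (percent of gene plus TE counts, linear axis), with lines joining the libraries of a tumour. All 3 combination tumours had more rRNA in J2 than in input, and the docetaxel 3 input, the open triangle, had the highest share in every panel.

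As a single value per tumour, the log2 ratio of the rRNA share in J2 to that in input was 4.88, 4.31 and 4.37 in combination tumours and 2.48, 0.72 and -2.28 in docetaxel tumours. The groups did not overlap. The means were 4.52 ± 0.31 in combination tumours and 0.31 ± 2.41 in docetaxel tumours (SD, n = 3 each), a difference of 4.21, at an exact two-sided permutation p of 0.1, the smallest that 3 against 3 can give, and 0.333 after adjustment over 10 shares. Without docetaxel 3 the difference was 2.92 (exact permutation p = 0.1, again the smallest possible). For the mitochondrial share the ratio was -1.56, 1.97 and 0.09 in combination tumours and -2.61, -1.70 and -1.86 in docetaxel tumours, with no overlap, a difference of 2.22 (exact permutation p = 0.1, adjusted 0.333) and of 2.32 without docetaxel 3 (exact permutation p = 0.2). For the TE share it was -0.38, -0.09 and -0.16 in combination tumours and 0.67, 0.82 and -0.97 in docetaxel tumours. Here docetaxel 3 lay below all combination tumours and the other 2 docetaxel tumours above them. The difference was -0.39 (exact permutation p = 0.5, adjusted 0.833), and -0.96 without docetaxel 3 (exact permutation p = 0.1).

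Gene by gene, the J2/input ratios of combination tumours resembled each other more than they resembled those of docetaxel tumours. Across 17338 genes, which are not independent replicates, Spearman's rho was 0.42 to 0.63 between combination tumours, and 0.81 between docetaxel 1 and 2. Between a combination and a docetaxel tumour it ran from -0.34 to 0.27. Docetaxel 1 and 2 lay at 0.77 to 0.85 with the vehicle tumours, combination tumours at -0.08 to 0.29, and docetaxel 3 at no more than 0.11 with any tumour. With the ORIN1001 tumours, combination tumours lay at -0.16 to 0.55, and docetaxel 1 and 2 at 0.42 to 0.84. Combination 1 and combination 3 lay at 0.55 and 0.50 with ORIN1001 1, above the 0.42 between combination 1 and combination 2. The ratios of a tumour share its libraries and depth, so these values are descriptions.

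**Figure D2:**
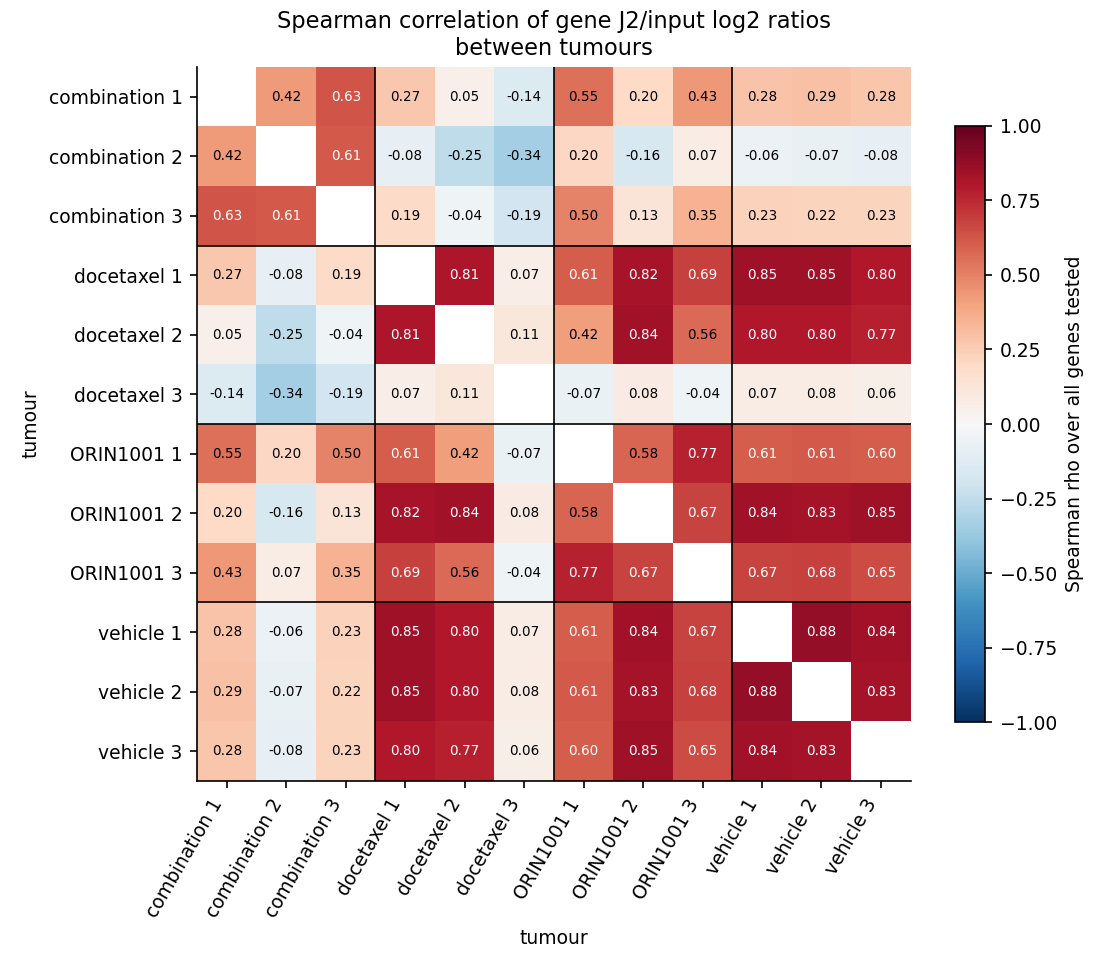
Spearman correlation, over all genes tested, of the J2/input log2 ratios of each pair of the 12 tumours, grouped by treatment. Combination tumours correlate with each other at 0.42 to 0.63, docetaxel 1 with docetaxel 2 at 0.81, and docetaxel 3 with no tumour above 0.11.

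The change in J2 enrichment between combination and docetaxel tumours was called at an adjusted p below 0.05 for 5315 of 17338 genes, or 30.7% (edgeR quasi-likelihood test with Benjamini-Hochberg adjustment). Higher in combination tumours were 2265 genes (13.1%), and lower were 3050 (17.6%). The J2/input ratios of the 2 groups did not overlap in 6499 genes (37.5%), so a lack of overlap was common. Without docetaxel 3, 7310 of 17890 genes were called (40.9%), 3540 higher (19.8%) and 3770 lower (21.1%). Of the genes called, 5159 were called in the same direction in both fits, 97.1% of the first list and 70.6% of the second, and 0 were called in opposite directions. With total counts in place of TMM scaling the median change over all genes moved to -1.38, against -0.05 with TMM, and 2.35% of the calls were higher, against 42.6%. Directions below therefore hold relative to the bulk of genes under TMM, and lists are also given relative to the all-gene median of the same fit. Each list count below is to be read beside the shares of all genes called in the same fit.

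Transcripts of the mitochondrial genome made up 6 of the 12 largest rises among called genes whose groups did not overlap, with a mean log2 CPM of at least 0 and an established name. Both mitochondrial strands are transcribed along their whole length, and the minority-strand RNA is normally degraded, so this genome is a known source of double-stranded RNA. Of 9 tested mRNAs of the majority strand, 8 rose in combination tumours and 0 fell, with a median change of 5.57. Of 6 tested genes of the minority strand, 4 rose and 0 fell, with a median of 7.10, and of 6 rRNA and majority-strand tRNA genes, 5 rose and 0 fell, with a median of 3.84. Without docetaxel 3 the counts were 9, 4 and 5, all higher, and the medians 5.03, 4.06 and 4.01. Against the all-gene median the 3 lists stood 5.62, 7.15 and 3.89 higher with TMM, and 5.52, 6.92 and 4.0 higher with total counts. The lists follow the annotated strand of each gene. The strand setting of the counting is not given, so a gene's counts may include reads of the opposite strand. In bulk tumour RNA, fewer cells of a type and less RNA per cell cannot be told apart.

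Subunit mRNAs of each strand show how the tumours differ. mt-Nd5 is a complex I subunit mRNA of the majority strand. Its J2/input ratios were -0.40, 6.06 and 2.87 in combination tumours, against -2.80, -3.10 and -8.24 in docetaxel tumours. Its J2 counts were 1177, 24346 and 26530 in combination tumours and 1269, 1470 and 1669 in docetaxel tumours, over input counts of 15015, 2546 and 7818 in combination tumours and 9163, 47986 and 59721 in docetaxel tumours. Combination 2 was the highest and docetaxel 3 the lowest, without overlap between groups. The change was 7.17 ± 1.71 (SE, adjusted p = 0.00643), and 5.83 without docetaxel 3. mt-Nd6, the mRNA of the minority strand, had ratios of 2.35, 6.36 and 4.06 in combination tumours, against -0.21, -0.98 and -8.02 in docetaxel tumours, a change of 6.39 ± 1.67 (adjusted p = 0.0103) and of 4.85 without docetaxel 3. It lay above its input in all combination tumours and below it in all docetaxel tumours.

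In the other mRNAs, too, combination 2 was the highest and docetaxel 3 the lowest tumour. mt-Co3, a cytochrome c oxidase subunit, had ratios of -1.66, 5.27 and 1.27 in combination tumours, against -3.76, -2.36 and -7.82 in docetaxel tumours, and changed by 7.04 ± 1.45 (adjusted p = 0.00283; 5.39 without docetaxel 3). mt-Nd4 changed by 6.17 ± 1.24 (adjusted p = 0.00247) and mt-Co2 by 5.29 ± 1.05 (adjusted p = 0.00227). These rises held, past the threshold, in every fit that left out 1 tumour. mt-Co1 was the mRNA not past the threshold, at 3.33 (adjusted p = 0.0648), and at 1.96 without docetaxel 3 (adjusted p = 0.0479). Leaving out combination 2 gave mt-Cytb 2.44, against 3.71 with all tumours, and a median of 4.0 for the majority-strand mRNAs.

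The largest fitted rise by the same conditions, of mt-Te, leans on the docetaxel 3 input. This minority-strand tRNA gene for glutamate had J2 counts of 13, 359 and 135 in combination tumours and 5, 2 and 3 in docetaxel tumours, over input counts of 10, 3 and 4 in combination tumours and 2, 31 and 471 in docetaxel tumours. The 471 counts in docetaxel input 3 are what separates that tumour, whose ratio was -10.09, from docetaxel 1 and 2, at 0.90 and -1.40. Combination ratios were 3.45, 9.15 and 5.63, all above the docetaxel tumours. The change was 14.31 ± 2.20 (adjusted p = 0.00067), and 7.36 ± 1.41 without docetaxel 3. mt-Ty behaved alike, at 9.46 ± 2.38 (adjusted p = 0.00855) and 4.64 without docetaxel 3. mt-Tm, at 8.57 (adjusted p = 0.00717), lost its call without combination 2, at 2.0 (adjusted p = 0.946). The rRNA genes mt-Rnr1 and mt-Rnr2, named after their values were seen, rose by 3.01 ± 1.01 and 2.31 ± 0.75 (adjusted p = 0.0353 and 0.0308), but without combination 2 they stood at 2.01 and 1.63 with adjusted p of 0.135 and 0.112, and they also lost the call without combination 3, docetaxel 1 or docetaxel 2.

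**Figure D3:**
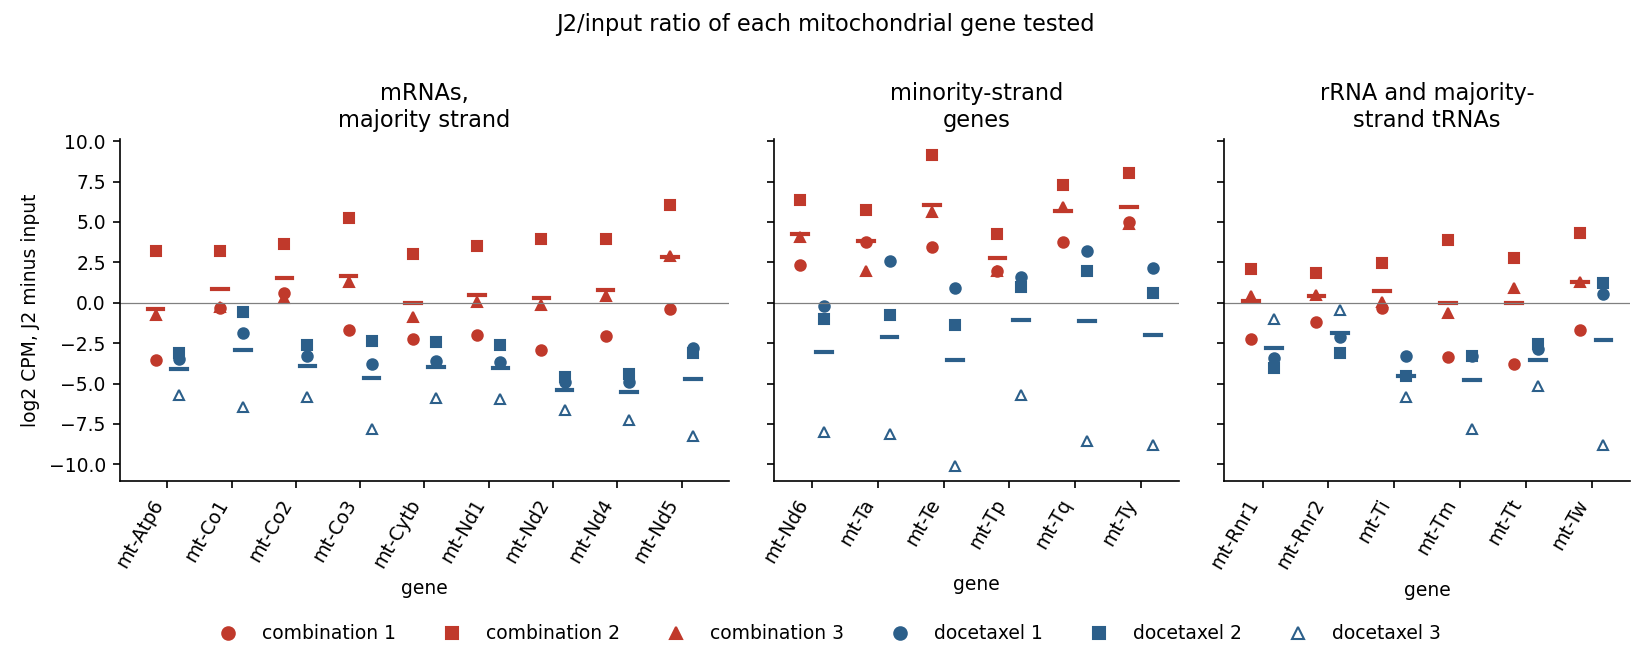
J2/input log2 ratio of each mitochondrial gene tested (y axis) in the 3 combination and 3 docetaxel tumours, with bars at the group means. Genes are split by annotated strand and kind, and the strand setting of the counts is not given. For mt-Nd5 the combination points lie at -0.40 to 6.06 and the docetaxel points at -8.24 to -2.80, and the open triangles of docetaxel 3 are the lowest points in the mRNA and minority-strand panels.

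RNA from nuclear rRNA loci was split by kind. Gm42418 and CT010467.1 are annotated loci that overlap rRNA repeat sequence. Gm42418 had ratios of 4.17, 3.94 and 3.45 in combination tumours, against 1.04, -0.65 and -2.11 in docetaxel tumours. It rose by 4.43 ± 0.71 (adjusted p = 0.000784; 3.68 without docetaxel 3), and CT010467.1 by 5.36 ± 0.54 (adjusted p = 0.000379; 4.94 without docetaxel 3). Neither overlapped between groups. The 3 members that fell were 5S rRNA genes, which a separate polymerase transcribes: n-R5s200, n-R5s8 and n-R5s26, which changed by -4.38, -3.27 and -4.44. Without combination 3 all 3 calls were lost, at -7.88, -8.81 and -3.92 (adjusted p of 0.062, 0.0535 and 0.138), and the last 2 genes, named after their values were seen, also lost them in 3 further fits each. In all, 2 of 6 rose and 3 fell, with a median of 0.58, and of -0.57 with total counts. Without docetaxel 3, 3 rose and 3 fell, with a median of 0.027.

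Small structured RNAs rose where they passed the test. Of 8 abundant structured RNAs (7SK, vault, Y, telomerase and related RNAs), 2 rose and 0 fell, with a median change of 2.58. Without docetaxel 3, 6 rose and 0 fell, with a median of 4.14. Rn7sk, at chr9:78175302-78175633, is the 7SK RNA that holds the elongation factor P-TEFb inactive. Its ratios were -0.31, 0.30 and -0.56 in combination tumours, against -1.41, -2.17 and -1.20 in docetaxel tumours, close to its input in the first group and below it in the second. The change was 1.40 ± 0.41 (adjusted p = 0.0177; 1.62 without docetaxel 3); it was lost without docetaxel 2 (adjusted p = 0.0739) and stood at -0.07 with total counts. Vaultrc5, a vault RNA, rose by 4.45 ± 0.76 (adjusted p = 0.00102; 4.15 without docetaxel 3). Rny1, a Y RNA bound by the Ro60 protein, changed by 3.76 (adjusted p = 0.0575), and by 4.13 without docetaxel 3 (adjusted p = 0.013).

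Of 6 tested small nuclear RNAs, 2 rose and 0 fell, and the median of the 6 was -1.16. The 2 were Rnu11 and Rnu12, RNAs of the minor spliceosome, which removes a rare class of introns. Rnu11, the U11 RNA at chr4:132270079-132270186, had ratios of 0.88, 2.62 and 0.67 in combination tumours, against -2.99, -3.18 and -4.18 in docetaxel tumours. Every combination value was above 0 and every docetaxel value below it. The change was 5.79 ± 0.75 (adjusted p = 0.000445; 5.6 without docetaxel 3). Rnu12, the U12 RNA, rose by 5.51 ± 1.13 (adjusted p = 0.0027; 6.47 without docetaxel 3).

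Guide RNAs of the nucleolus and Cajal body moved in both directions. Of 34 tested, 11 rose and 4 fell, beside 13.1% and 17.6% of all genes. Without docetaxel 3, 11 and 4 did so, while without combination 2 or combination 3, 8 rose and 1 fell. Their median change was 0.91, or 0.097 without docetaxel 2, and turned to -0.16 with total counts. It was 0.96 above the all-gene median, 1.23 above it with total counts and, over 17 settings, at least 0.099 above it. Scarna2, a Cajal body RNA at chr3:108554342-108554402, had ratios of 3.44, 2.16 and 3.79 in combination tumours, against 0.11, -1.49 and 0.15 in docetaxel tumours. It was enriched by J2 in every combination tumour and near or below input in the docetaxel tumours. The change was 3.54 ± 0.51 (adjusted p = 0.000525; 3.84 without docetaxel 3). Snora73b, at chr4:132352322-132352526, a guide RNA needed for rRNA maturation, had ratios of 3.10, 3.32 and 3.97 in combination tumours, against -0.73, -1.92 and -6.67 in docetaxel tumours, and rose by 6.49 ± 1.13 (adjusted p = 0.00114; 5.14 without docetaxel 3).

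Among 73 tested microRNA hairpin genes, 8 rose and 16 fell, beside 13.1% and 17.6% of all genes, with a median of -0.58. Of the 73, 51 had a RefSeq hairpin. Of the same genes 8 rose and 17 fell without docetaxel 3, but falls numbered 6 without combination 2 or docetaxel 1 and 7 without docetaxel 2. Mir17hg, host of the miR-17-92 cluster at chr14:115044390-115046728, had ratios of -3.35, -5.0 and -2.0 in combination tumours, against 0.79, 0.18 and 2.03 in docetaxel tumours. All combination values were below input and all docetaxel values above it, a change of -3.56 ± 0.56 (adjusted p = 0.000725). In the other direction Mir6236, at chr9:110281287-110281409, had ratios of 0.89, 4.18 and 2.7 in combination tumours, against -1.85, -2.73 and -3.36 in docetaxel tumours, and rose by 5.27 ± 0.68 (adjusted p = 0.000438; 4.93 without docetaxel 3).

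The other 2 hairpin genes named by the rule share a sequence, so both hairpins are shown, from RefSeq (GRCm38.p6), 5′ to 3′, with the longest pair of perfectly complementary arms in capitals. These arms are 11 bases long in Mir3473a, at chrX:162874918-162874995 on the minus strand, and 12 in Mir3473d, at chr8:111016450-111016530 on the minus strand.
Mir3473a: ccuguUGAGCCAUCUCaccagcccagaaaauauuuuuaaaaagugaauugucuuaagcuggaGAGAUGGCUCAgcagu
Mir3473d: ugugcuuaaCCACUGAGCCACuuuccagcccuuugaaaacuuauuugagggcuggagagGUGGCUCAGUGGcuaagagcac
The mature sequences, with the seed (bases 2 to 8) in capitals, have different seeds.
miR-3473a: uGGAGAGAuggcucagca
miR-3473d: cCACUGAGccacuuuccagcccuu
The longest stretch that both hairpins share with at most 1 mismatch, written N, lies in their 3′ arms and reads GCUGGAGAGNUGGCUCAG; on either strand it was found in 6 of 1005 RefSeq mouse hairpins (0.597%) and in 5 of 7 of the Mir3473 hairpins. Among the 51 tested hairpin genes with a RefSeq hairpin, these 2 hold it (3.92%). The match is a description of the letters only.

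Both Mir3473 genes were called only with docetaxel 3 in the fit. Mir3473a had J2 counts of 10, 118 and 92 in combination tumours and 11, 2 and 11 in docetaxel tumours, over input counts of 0, 5 and 4 in combination tumours and 0, 3 and 92 in docetaxel tumours. Mir3473d had J2 counts of 9, 27 and 47 in combination tumours and 1, 1 and 31 in docetaxel tumours, over input counts of 1, 10 and 4 in combination tumours and 0, 1 and 70 in docetaxel tumours. The docetaxel 3 input held most of the input counts of both. The fitted changes were 9.24 ± 2.25 (adjusted p = 0.0071) for Mir3473a and 8.23 ± 1.26 (adjusted p = 0.000656) for Mir3473d, and 4.05 and 2.75 without docetaxel 3 (adjusted p = 0.0853 and 0.422).

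Several protein-coding genes with few counts had large fitted rises of the same kind. Gnao1, a G protein α subunit gene at chr8:93810153-93969388, had J2 counts of 12, 129 and 91 in combination tumours and 9, 3 and 11 in docetaxel tumours, over input counts of 3, 1 and 5 in combination tumours and 2, 12 and 391 in docetaxel tumours. The docetaxel 3 input again held most of the input counts. The change was 11.82 ± 2.28 (adjusted p = 0.00197), and 5.82 without docetaxel 3. Itln1, an intelectin gene, had 287 counts in the docetaxel 3 input, against 3 and 10 in the other docetaxel inputs. Zfp972 and Itln1 changed by 8.75 and 8.20, and by 5.89 and 3.33 without docetaxel 3, while Itln1 was not called without combination 2 (adjusted p = 0.0616). Meltf had 1 count in each combination J2 library, so its fitted rise is not given as a fold.

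Long noncoding RNAs moved in both directions, with antisense, X-linked and speckle RNAs among those that fell. Of 14 tested, 3 rose and 4 fell, beside 13.1% and 17.6% of all genes, with a median of -0.64. Without docetaxel 3, 2 of 13 rose and 7 fell. Kcnq1ot1, the antisense RNA that silences an imprinted cluster, lies at chr7:143213111-143296547. Its ratios were -1.52, -3.37 and -1.73 in combination tumours, against 1.84, 2.02 and 1.24 in docetaxel tumours. It was depleted by J2 in every combination tumour and enriched in every docetaxel tumour, including docetaxel 3. The change was -3.89 ± 0.55 (adjusted p = 0.000479; -4.09 without docetaxel 3). Xist, which coats the inactive X chromosome and is read from chrX:103460373-103483233, had ratios of 0.13, -1.54 and -0.73 in combination tumours, against 1.98, 1.89 and 1.81 in docetaxel tumours. It changed by -2.61 ± 0.43 (adjusted p = 0.000835; -2.63 without docetaxel 3). The docetaxel tumours lay close together, docetaxel 3 included.

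Malat1, the abundant RNA of nuclear speckles at chr19:5795690-5802672, had ratios of -1.03, -1.59 and -1.0 in combination tumours, against -0.27, 0.57 and 1.12 in docetaxel tumours. The change was -1.68 ± 0.46 (adjusted p = 0.013), not called without docetaxel 2 (adjusted p = 0.0579). Rian, an imprinted RNA named after its value was seen, fell by 1.37 (adjusted p = 0.0475) and was not called in any fit without a combination tumour, docetaxel 1 or docetaxel 2, at adjusted p of 0.0618 to 0.215. The 3 that rose, also named after their values were seen, were Gas5, a host of small nucleolar RNAs, at 1.86 (adjusted p = 0.0195), and the imprinted RNAs H19 at 2.45 (adjusted p = 0.0263) and Meg3 at 2.07 (adjusted p = 0.0261). Each lost its call in at least 3 of the fits that left out a tumour, and Meg3 did so without docetaxel 3, at 1.08 (adjusted p = 0.0976).

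Among the 12 largest falls by the same conditions were those of Snhg14, Fut9 and Cd53. Snhg14, the long imprinted transcript over the Snrpn and Ube3a region at chr7:59272737-60450177, had ratios of -2.33, -3.13 and -5.24 in combination tumours, against 0.48, 2.13 and 2.05 in docetaxel tumours, a change of -5.42 ± 0.83 (adjusted p = 0.000663). Fut9, a fucosyltransferase gene at chr4:25609333-25800003, had J2 counts of 8, 15 and 51 in combination tumours and 1312, 4547 and 46 in docetaxel tumours, over input counts of 428, 532 and 552 in combination tumours and 327, 2053 and 2 in docetaxel tumours. Its ratios were -2.44, -2.33 and -2.31 in combination tumours, against 2.04, 3.07 and 1.41 in docetaxel tumours. The combination values lay close together, and the change was -4.88 ± 0.54 (adjusted p = 0.000379; -4.93 without docetaxel 3). Cd53, a leukocyte tetraspanin at chr3:106758861-106790149, had ratios of -5.35, -3.24 and -5.73 in combination tumours, against -1.38, -0.80 and 2.76 in docetaxel tumours, and fell by 4.15 on the log2 scale (SE 0.70, adjusted p = 0.000999; -3.81 without docetaxel 3).

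For 6 of these 12 falls no count was found in any combination J2 library. A floor of 3 counts over the group gives lower bounds: the J2/input ratio was at least 8.30-fold lower in combination than in docetaxel tumours for Mfsd4b5, 5.03-fold for P2ry10b, 4.52-fold for Neu2, 3.08-fold for Stard6, 2.94-fold for Ldb2 and 2.03-fold for Sema3a. The floor covers counting error in the combination J2 counts only. Docetaxel J2 counts and all input counts were taken as observed, for Sema3a 10 and 35 in docetaxel tumours. Each bound therefore holds only at those observed counts. All but P2ry10b lost their call without combination 3, the deepest combination J2 library, at adjusted p of 0.0665 to 0.136, and Sema3a also without docetaxel 2 (adjusted p = 0.0729). Among the rest of the 12, Phxr4, Gpr21 and Ppnr changed by -4.93 ± 0.73, -4.88 ± 0.79 and -4.24 ± 0.47.

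Gene models and genes with no RefSeq entry fell in a higher share than named genes. Of 3706 gene models and unnamed rows, 5.37% rose and 31.6% fell, with a median change of -1.10, against 15.2% and 13.8% of 13632 named genes, with a median of 0.07. Of 2232 genes that could not be matched to RefSeq, 5.15% rose and 44.0% fell. The change was lower in genes of longer span: with genes cut into 5 equal classes of genomic span, the median change from short to long was 0.37, 0.21, 0.07, -0.12 and -0.21. Genes enriched by J2 in the vehicle tumours, 3510 in number, had a median of -0.74, and the 3662 depleted in vehicle had a median of 0.41. The median ratio of the enriched genes was 0.16 in combination and 0.86 in docetaxel tumours, and that of the depleted genes -0.45 in combination and -0.79 in docetaxel tumours. These medians describe genes, which share libraries.

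Zinc-finger genes named Zfp, many of which encode repressors of TEs, leaned the same way. Of 345 tested, 30 rose and 82 fell, beside 13.1% and 17.6% of all genes. These counts were 52 and 102 without docetaxel 3 and 20 and 34 without docetaxel 2. The list median was 0.32 below the all-gene median, or 0.33 below with total counts. Zfp266, at chr9:20495068-20521419, had ratios of -1.24, -2.32 and -1.34 in combination tumours, against 0.58, 1.24 and 0.99 in docetaxel tumours. It was below input in every combination tumour and above it in every docetaxel tumour, a change of -2.56 ± 0.33 (adjusted p = 0.000439; -2.5 without docetaxel 3). Zfp280d and Zfp644 fell by 2.89 and 2.14 on the log2 scale (SE 0.36 and 0.28).

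Among cytosolic ribosomal protein genes, nearly all that passed the test rose. Of 87 cytosolic ribosomal protein genes, 24 rose and 1 fell, with a median of 0.80. Without docetaxel 3, 50 rose and 2 fell. With total counts 0 rose and 6 fell, although the median stayed 0.74 above that of all genes, against 0.85 above it with TMM. Rps27a, which encodes a ribosomal protein fused to ubiquitin at chr11:29545842-29548040, had ratios of 0.86, 0.84 and 1.78 in combination tumours, against -1.02, -1.36 and -1.47 in docetaxel tumours. It was above input in each combination tumour and below it in each docetaxel tumour, a change of 2.44 ± 0.35 (adjusted p = 0.000496; 2.38 without docetaxel 3). Of 62 replication-dependent histone genes, whose mRNAs end in a stem-loop without a poly(A) tail, 8 rose, a share near the 13.1% of all genes, and 0 fell, against 27 and 0 without docetaxel 3 and 5 and 0 without docetaxel 2. Hist1h1d had ratios of 0.17, 1.41 and 1.00 in combination tumours, against -1.39, -1.19 and -0.08 in docetaxel tumours, and rose by 1.77 ± 0.38 (adjusted p = 0.00339; 2.19 without docetaxel 3). The histone median was 0.35, but -0.07 without combination 2, -0.04 without docetaxel 1 and -0.99 with total counts. Ribosomal protein and histone genes have near-identical copies, so their counts are uncertain.

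Genes of double-stranded RNA sensing that passed the test rose, apart from Tlr3. Of 27 tested, 6 rose and 1 fell, beside 13.1% and 17.6% of all genes. Without docetaxel 3, 9 rose and 1 fell, and without docetaxel 2, 2 rose and 1 fell. The list median was 0.56 above the all-gene median, and 0.45 above it with total counts, where 0 rose and 7 fell. Tlr3, the endosomal receptor at chr8:45395665-45411075, was the member that fell. Its ratios were -1.76, -2.18 and -2.01 in combination tumours, against -0.76, 0.06 and 0.39 in docetaxel tumours. The combination tumours lay close together and below every docetaxel tumour, a change of -1.80 ± 0.30 (adjusted p = 0.000853; -1.61 without docetaxel 3). Mlkl, the executor of necroptosis, rose by 1.25 ± 0.32 (adjusted p = 0.00896), but was at -0.23 with total counts. For Eif2ak2, the gene of PKR, the change was -0.40 (adjusted p = 0.282), and for Ifih1, the gene of MDA5, 0.07 (adjusted p = 0.892); neither passed.

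Of 16 genes for RNA editing and other double-stranded RNA-binding proteins, 2 rose and 4 fell, beside 13.1% and 17.6% of all genes. Without docetaxel 3, 4 rose and 4 fell, beside 19.8% and 21.1%, and without docetaxel 2, 0 rose and 2 fell. Stau2, a Staufen protein that carries mRNAs, had ratios of -0.57, -1.24 and -0.80 in combination tumours, against 0.37, 0.63 and 0.76 in docetaxel tumours. The signs were opposite in every tumour, a change of -1.43 ± 0.24 (adjusted p = 0.000997; -1.34 without docetaxel 3). Adar, the editing enzyme that marks endogenous duplexes as self, had ratios of 0.62, 0.39 and 0.73 in combination tumours, against -0.06, -0.23 and -0.25 in docetaxel tumours. It rose by 0.76 ± 0.23 (adjusted p = 0.0196; 0.76 without docetaxel 3), was not called without combination 3 or docetaxel 2 (adjusted p = 0.0541 and 0.0505), and stood at -0.71 with total counts.

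Interferon-stimulated genes moved in both directions, in shares near those of all genes. Of 40 tested, 6 rose and 5 fell, beside 13.1% and 17.6% of all genes, and 9 rose and 10 fell without docetaxel 3, beside 19.8% and 21.1%; the median was 0.09 above that of all genes, and 0.14 below it without docetaxel 3. Bst2, the tetherin gene at chr8:71534255-71537472, had ratios of 0.71, 1.62 and 1.94 in combination tumours, against -1.27, -1.61 and 0.41 in docetaxel tumours. Isg15, a ubiquitin-like modifier, had ratios of -0.45, 0.53 and 0.29 in combination tumours, against -1.71, -2.01 and -0.89 in docetaxel tumours. Neither gene overlapped between the groups, and in both docetaxel 3 was the highest docetaxel tumour. Bst2 rose by 2.38 ± 0.47 (adjusted p = 0.00222; 2.92 without docetaxel 3) and Isg15 by 1.74 ± 0.36 (adjusted p = 0.00294; 2.06 without docetaxel 3). In the other direction Herc6, an ISG15-ligase family gene named after its value was seen, fell by 2.20 ± 0.47 on the log2 scale (adjusted p = 0.00341; -1.88 without docetaxel 3). Of 20 MHC and antigen presentation genes, 5 rose and 1 fell, with a median 0.57 above that of all genes. Without docetaxel 3, 9 rose and 1 fell, and without docetaxel 2, 0 were called. The nonclassical class I gene H2-T23 rose by 1.16, but was not called without docetaxel 2 (adjusted p = 0.054) and was at -0.30 with total counts.

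With all tumours, neither the gene of the drug's target nor Xbp1 passed the test. Ern1, the gene of IRE1α at chr11:106397620-106487796, had ratios of 0.49, 0.26 and 0.37 in combination tumours, against 0.69, 0.60 and 0.66 in docetaxel tumours. The groups did not overlap, as in 37.5% of all genes, and the change of -0.28 ± 0.22 did not pass (adjusted p = 0.364). Xbp1, whose mRNA IRE1α splices, lies at chr11:5520641-5525993 and had ratios of 0.37, 0.77 and -0.14 in combination tumours, against 1.22, 1.10 and -1.40 in docetaxel tumours. Docetaxel 3 alone lay below the combination tumours. The change was -0.08 ± 0.52 (adjusted p = 0.929), and -0.82 ± 0.25 without docetaxel 3 (adjusted p = 0.0167). Of 37 IRE1 and XBP1 target genes, 2 rose and 3 fell, beside 13.1% and 17.6% of all genes. These counts were 12 and 7 without docetaxel 3 and 1 and 0 without combination 3. The sign of the list median against that of all genes held in 7 of 17 settings. Creld2, a resident of the endoplasmic reticulum, had ratios of -0.23, 1.05 and 0.87 in combination tumours, against -0.71, -1.52 and -0.61 in docetaxel tumours, and rose by 1.57 ± 0.37 (adjusted p = 0.00602; 1.76 without docetaxel 3). Of 11 reported substrates of IRE1α decay, 1, the collagen gene Col6a1, rose and 0 fell, or 4 and 0 without docetaxel 3.

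Among 19 genes of the ATF4 and CHOP stress response, 6 rose and 2 fell, beside 13.1% and 17.6% of all genes. These counts were 9 and 4 without docetaxel 3 and 2 and 1 without docetaxel 2. Ddit3, the gene of CHOP at chr10:127290793-127296291, had ratios of 0.69, 0.84 and 0.30 in combination tumours, against -1.34, -1.34 and -0.90 in docetaxel tumours. All combination tumours were above input and all docetaxel tumours below it, a change of 1.86 ± 0.36 (adjusted p = 0.00196; 1.96 without docetaxel 3). Slc7a11, the cystine transporter gene at chr3:50364936-50499087, went the other way, with ratios of -0.54, -1.09 and -1.11 in combination tumours, against 1.64, 2.15 and 0.29 in docetaxel tumours, and fell by 2.66 on the log2 scale (SE 0.44, adjusted p = 0.000921; -2.85 without docetaxel 3). Sesn2, a stress-induced regulator of TORC1, rose by 1.18, but was at -0.25 with total counts.

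Of 30 genes of mitosis and the spindle checkpoint, which docetaxel engages, 5 rose and 5 fell, again near the 13.1% and 17.6% of all genes; without docetaxel 3, 10 rose and 5 fell, and without combination 3, 3 rose and 3 fell. Ccna2, the cyclin A2 gene at chr3:36564865-36573038, had ratios of -0.85, -1.64 and -1.22 in combination tumours, against 0.18, 0.81 and -0.25 in docetaxel tumours. It was below input in every combination tumour and lower there than in any docetaxel tumour, a change of -1.49 ± 0.32 (adjusted p = 0.00325; -1.70 without docetaxel 3). Aurkb, the Aurora B kinase gene, rose by 1.25 ± 0.27, but was at -0.21 with total counts.

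**Figure D4:**
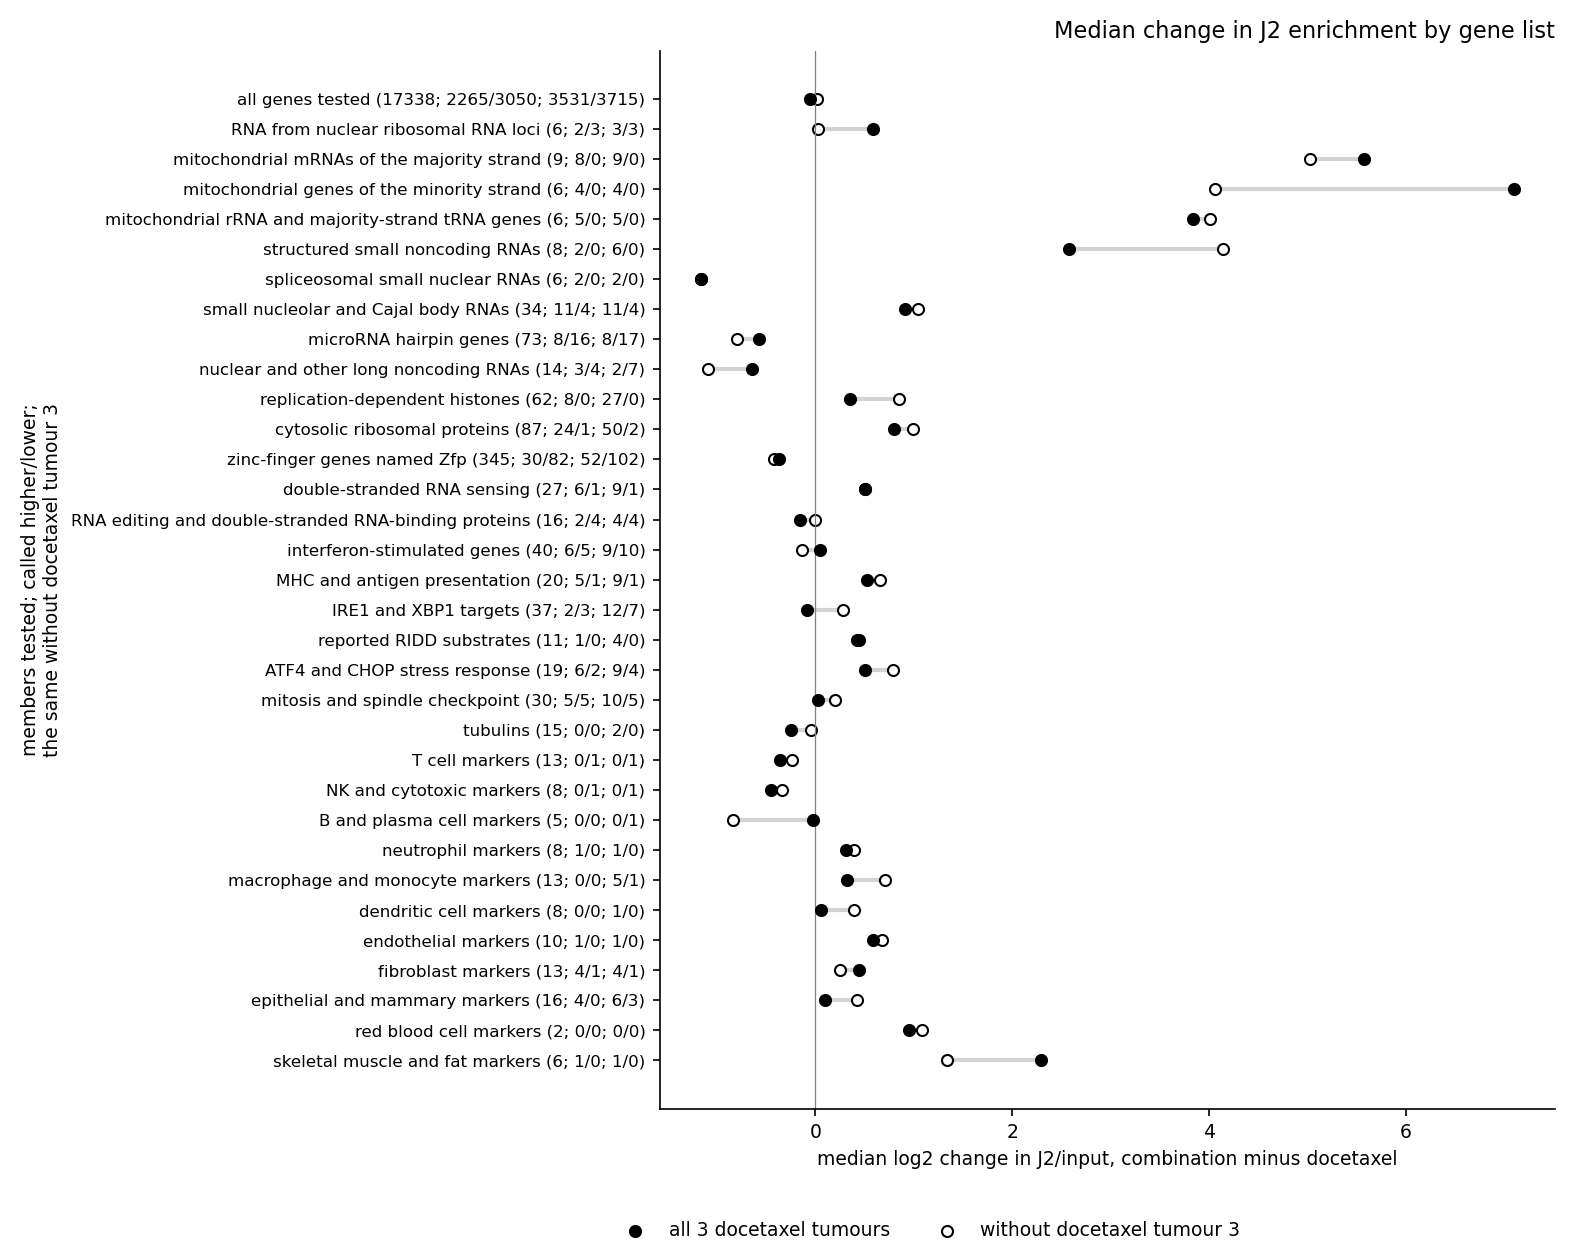
Median log2 change in J2/input ratio, combination minus docetaxel, of each gene list, with all 3 docetaxel tumours (filled) and without docetaxel 3 (open). The 3 mitochondrial lists lie farthest to the right, at 3.84 to 7.10 with all tumours, while most coding lists lie within 1 of 0, and the counts at the left give members tested and called.

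The markers of stromal and immune cells were few in calls, apart from collagens and keratins. Of 13 fibroblast markers, 4 collagen genes rose and Fap, the fibroblast activation protein gene, fell. Col1a1, the type I collagen gene at chr11:94936224-94953042, had J2 counts of 1369, 6642 and 15252 in combination tumours and 3995, 645 and 3694 in docetaxel tumours, over input counts of 2219, 5485 and 3593 in combination tumours and 2845, 3886 and 1457 in docetaxel tumours. Its ratios were 2.57, 3.08 and 3.19 in combination tumours, against 0.54, -0.66 and -1.74 in docetaxel tumours. It was enriched by J2 in each combination tumour, a change of 3.57 ± 0.49 (adjusted p = 0.000479; 3.03 without docetaxel 3). Col1a2, Col3a1 and Col5a1 rose by 2.95 ± 0.35, 2.79 ± 0.36 and 2.11 ± 0.31, and Fap changed by -2.35 ± 0.51. The summed level of all 13 fibroblast markers was 1267 to 4177 CPM in combination J2 libraries and 580 to 742 CPM in their inputs, against 407 to 943 CPM in docetaxel J2 libraries and 551 to 2754 CPM in their inputs, with all 13 counted in every group. The part of cell content in these changes was not tested.

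Of 16 tested epithelial and mammary markers, 4 rose and 0 fell, beside 13.1% and 17.6% of all genes (6 and 3 without docetaxel 3). Cldn4, a tight junction gene at chr5:134945123-134946934, had ratios of 1.64, 1.34 and 1.27 in combination tumours, against -0.20, -0.35 and -0.13 in docetaxel tumours. The tumours of each group lay close together, and the change was 1.64 ± 0.27 (adjusted p = 0.000799; 1.72 without docetaxel 3). Krt19, a luminal keratin, rose by 3.74 ± 0.71, and Krt18, a keratin of simple epithelium, by 1.35 ± 0.29, though Krt18 was at -0.13 with total counts. Their summed level, over 17 markers, was 2664 to 3019 CPM in combination J2 libraries and 2123 to 2971 CPM in their inputs, against 2076 to 2091 CPM in docetaxel J2 libraries and 2473 to 3607 CPM in their inputs. Of 13 macrophage and monocyte markers 0 rose and 0 fell with all tumours, and 5 rose and 1 fell without docetaxel 3. Their input level was 817 to 1151 CPM in combination tumours and 346 to 1005 CPM in docetaxel tumours. T cell, NK, B cell, neutrophil, dendritic, endothelial, red blood cell and muscle or fat lists had at most 1 call each. In the inputs, the summed levels did not overlap between the groups for T cell markers, at 30.7 to 44.7 CPM in combination tumours and 13.9 to 20.7 CPM in docetaxel tumours, for NK markers, at 13.8 to 18.1 CPM in combination tumours and 3.53 to 8.13 CPM in docetaxel tumours, and for dendritic cell markers, at 83.8 to 89.8 CPM in combination tumours and 16.3 to 60.8 CPM in docetaxel tumours. All 3 lists were higher in the combination inputs. Endothelial markers did not overlap either but were lower there, at 42.9 to 62.3 CPM in combination tumours and 65.6 to 88.0 CPM in docetaxel tumours. The muscle and fat markers summed to 2.65 to 5.35 CPM in combination inputs and 3.53 to 298 CPM in docetaxel inputs. The highest docetaxel value was that of docetaxel 3, whose input had 82.4 CPM of Plin1 and 83.6 CPM of Fabp4, genes of the fat cell. The part of these cell contents in the changes was not tested.

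Transposable elements behaved differently with and without docetaxel 3. With all tumours, 3 of 1046 TE names were called (0.287%), 2 higher (0.191%) and 1 lower (0.0956%), with 78 at an unadjusted p below 0.05. Without docetaxel 3, 823 of 1052 were called (78.2%), 53 higher (5.04%) and 770 lower (73.2%), and the median moved to -2.15, against -0.75 with all tumours. The direction of these calls depends on the scaling: with TE names scaled on their own table and without docetaxel 3, a setting chosen after seeing the data, 249 were higher and 217 lower, with a median of -0.16. The docetaxel 3 input held 39.2% of its gene and TE counts in TE names, against 11.1% and 10.7% in the other docetaxel inputs. With all tumours, the DESeq2 test called 20 TE names and limma-voom with sample weights 727. The counting of reads that match many copies is not given in the sources used here, so no copy or locus can be named.

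Of the 3 names called, 2 were higher in combination tumours. LTRIS4, an LTR of the retroviral class, had ratios of 4.30, 5.23 and 3.82 in combination tumours, against 1.55, 1.23 and -0.71 in docetaxel tumours, a change of 3.81 ± 0.60 (adjusted p = 0.0379; 3.14 without docetaxel 3). GSAT_MM, the major satellite of mouse pericentromeres, had ratios of 2.06, 4.10 and 2.81 in combination tumours, against 0.16, 0.19 and 0.09 in docetaxel tumours. Ratios of all 3 docetaxel tumours were near input level, while all 3 combination tumours were above it. Counts were low: in J2, 24, 46 and 100 in combination tumours and 45, 43 and 70 in docetaxel tumours. In the inputs they were 56, 18 and 30 in combination tumours and 40, 136 and 9 in docetaxel tumours. The docetaxel 3 ratio thus rests on 9 input counts. The change was 2.88 ± 0.52 (adjusted p = 0.0464), and 2.89 without docetaxel 3 (adjusted p = 0.000143). RLTR53B_Mm, named after its value was seen, had no count in combination J2 libraries and was lower, a call lost without combination 2, combination 3, docetaxel 1 or docetaxel 2. These calls were not kept in all fits without 1 tumour: LTRIS4 was lost without combination 2, combination 3 or docetaxel 2 (adjusted p of 0.0802, 0.141 and 0.0623), and GSAT_MM without any tumour but combination 1 and docetaxel 3 (adjusted p of 0.0802 to 0.328).

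Young L1Md elements, mouse LINE families of which only some can still move, and B2 elements, SINEs read by RNA polymerase III, had the highest family medians. The 6 L1Md names had a median change of 2.55 with 0 called, and 2.5 without docetaxel 3 with all 6 higher. They stood 3.31 above the median of all TE names, and 4.64 above it without docetaxel 3. L1Md_F2 had J2 counts of 10018, 257426 and 161932 in combination tumours and 27483, 28718 and 252934 in docetaxel tumours, over input counts of 23274, 29626 and 27061 in combination tumours and 11510, 45227 and 12119 in docetaxel tumours. Its ratios were 2.10, 5.98 and 3.74 in combination tumours, against 1.25, 1.21 and 1.51 in docetaxel tumours. The groups did not overlap, and here docetaxel 3 lay with its group. The change was 2.58 ± 0.89 (adjusted p = 0.438), 2.73 ± 0.74 without docetaxel 3 (adjusted p = 0.00335), and 1.67 without combination 2.

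L1Md_A, another young family, had ratios of 2.02, 5.92 and 3.82 in combination tumours, against 1.29, 1.20 and 1.54 in docetaxel tumours, a change of 2.56 ± 0.79 (adjusted p = 0.433; 2.71 and adjusted p = 0.00264 without docetaxel 3). B2_Mm1a had ratios of 1.45, 4.08 and 2.41 in combination tumours, against 0.85, 0.01 and 0.03 in docetaxel tumours, a change of 2.33 ± 0.69 (adjusted p = 0.433; 2.26 and adjusted p = 0.00264 without docetaxel 3). Combination 2 was again the highest tumour in both. B2_Mm2 overlapped between groups and was called in neither fit, at 1.41 and 0.76. All 6 L1Md names and 2 of 3 B2 names did not overlap between the groups, against 6.21% of all TE names.

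Among LTR elements, RLTR6-int, the internal part of an endogenous retrovirus, had ratios of 4.33, 3.56 and 3.49 in combination tumours, against 0.76, 0.59 and -4.74 in docetaxel tumours. The change of 4.49 ± 1.18 did not pass (adjusted p = 0.332), while it was 3.17 without docetaxel 3 (adjusted p = 6.06e-06). IAP elements, active murine retrotransposons, had 0 of 25 called and a median of 0.24, which was -0.94 without docetaxel 3, with 5 higher and 13 lower, and fell below 0 with total counts. They stood 0.99 and 1.21 above the median of all TE names in the 2 fits.

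Most names of the older families were lower without docetaxel 3, as were 73.2% of all TE names. DNA transposons had 0 of 98 called and a median of -1.54 with all tumours, and 1 higher and 91 lower with a median of -3.05 without docetaxel 3. MER2, a DNA transposon fossil, was grouped by name with the ancient LTR and MER names, not with these 98. Its ratios were -1.45, -2.91 and -1.81 in combination tumours, against 1.38, 1.57 and -6.66 in docetaxel tumours. Docetaxel 1 and 2 were above all combination tumours and docetaxel 3 below them, so the change was -1.98 with all tumours (adjusted p = 0.856), -3.47 without docetaxel 3 (adjusted p = 6.06e-06), and 0.47 and 0.57 without docetaxel 1 and docetaxel 2. Ancient LTR and MER names had a median of -1.57, and -2.99 without docetaxel 3, where 4 rose and 221 of 287 fell. Older L1 and Lx elements had medians of -1.11 and -2.58, with 8 higher and 93 lower of 123 without docetaxel 3. The most abundant names of this family rose like the L1Md names. L1_Mus1 and L1_Mus2 changed by 2.25 and 2.41 without overlap between groups, and L1_Mus3 by 1.62 with overlap, none called. Without docetaxel 3 they stood at 2.27, 2.46 and 1.19 (adjusted p of 0.0108, 0.00669 and 0.102). Lx3C changed by 3.13, and by 2.65 without docetaxel 3 (adjusted p = 0.282 and 0.00155). B1 elements, the SINEs derived from 7SL RNA, had a median of 0.09 with all tumours and -1.34 without docetaxel 3, with 9 of 15 lower, and stood 0.84 and 0.81 above the median of all TE names.

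**Figure D5:**
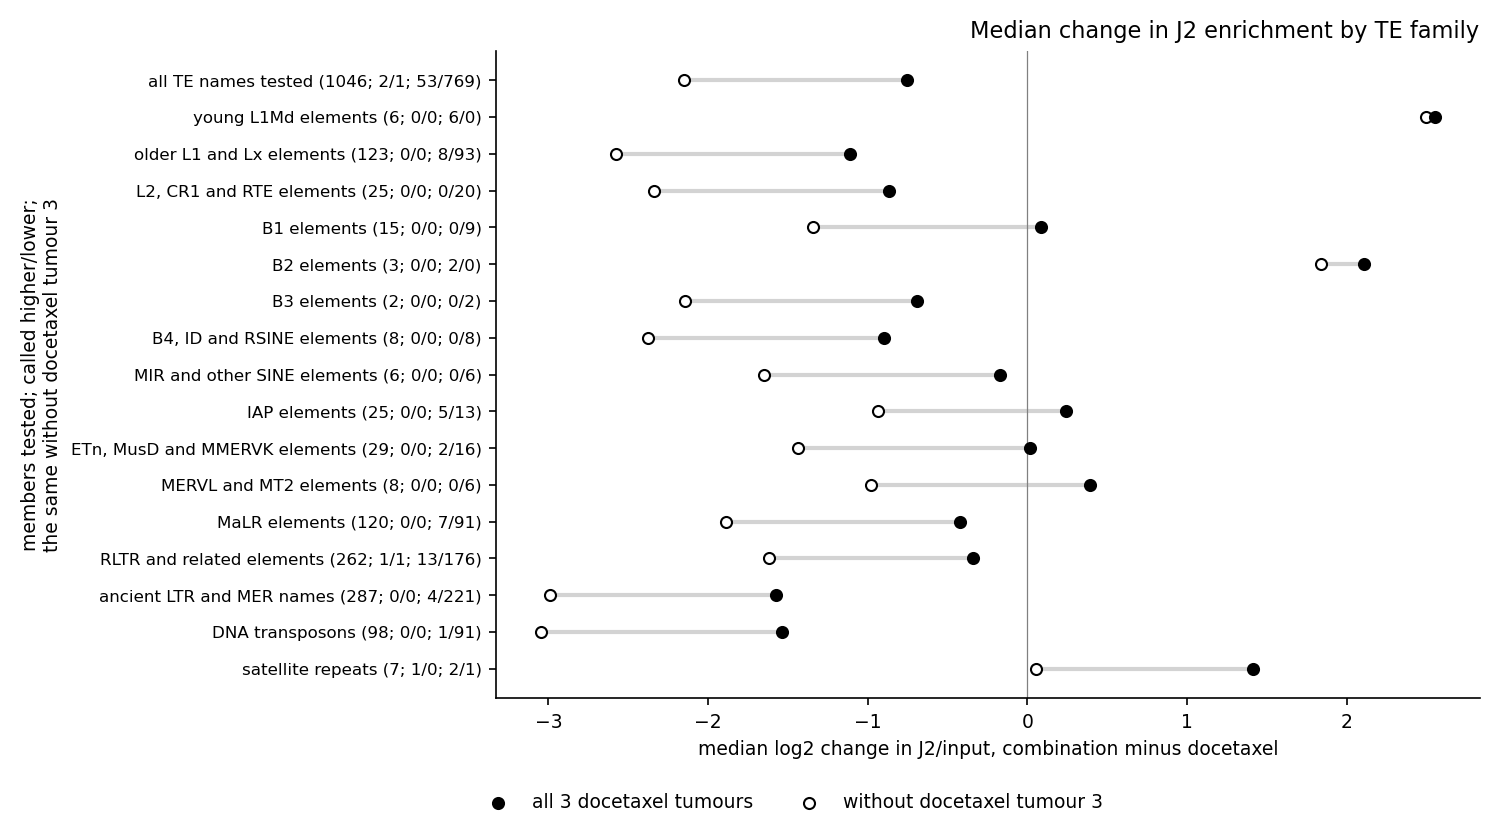
Median log2 change in J2/input ratio, combination minus docetaxel, of each TE family, with all 3 docetaxel tumours (filled) and without docetaxel 3 (open). L1Md and B2 elements lie to the right in both, at 2.55 and 2.11 with all tumours, while the median of all TE names is -0.75 with all tumours and -2.15 without docetaxel 3.

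ORIN1001 was also given without docetaxel, which allows a test of whether its J2 response differed. The change in ORIN1001 against vehicle tumours shares no library with that in combination against docetaxel tumours. The difference of these changes was called for 1350 of 17338 genes (7.79%), 567 higher (3.27%) and 783 lower (4.52%), with 4558 at an unadjusted p below 0.05, and for 3665 genes without docetaxel 3. The call count rests on the fit: it was 4 without vehicle 1, 11 with no replicate block and 0 with the replicate number as the block. Genes that rose with the combination had a median change of 1.41 against docetaxel, and of 0.07 for ORIN1001 against vehicle, and 60.4% had the same sign. For genes that fell the medians were -1.96 and -0.22, and 75.3% had the same sign. Over all genes tested the median for ORIN1001 against vehicle was 0.01. The share with the same sign over all genes was not computed, so no excess is read from these shares. Of the 9 majority-strand mitochondrial mRNAs, 5 were called higher in this test, 7 without docetaxel 3. mt-Nd5 had ratios of -1.68, -2.18 and -3.55 in ORIN1001 tumours and -2.60, -2.20 and -0.81 in vehicle tumours. In neither of these groups was it above its input.

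Snhg14 had ratios of -0.43, 1.58 and -0.16 in ORIN1001 tumours and 0.87, 1.02 and 1.04 in vehicle tumours, while Cd53 had -1.26, -1.37 and -1.25 in ORIN1001 tumours and -1.87, -1.36 and -1.53 in vehicle tumours. Both genes stood lower in the combination tumours than in any of these. For TE names the edgeR test of the difference called 0 of 1046, with 47 at an unadjusted p below 0.05, 5 by DESeq2 and 413 by limma-voom; without docetaxel 3 it called 554. Those 554 included all 6 L1Md names, higher, and 70 of 98 DNA transposon names, lower.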

How the data were processed

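Values are the whole-number counts per gene and per TE name that the authors deposited for 24 libraries (J2 and input of 12 tumours). The submitters' processing notes list STAR 2.7.3a, featureCounts 2.0.3, fastp 0.23.2 and the mm10 build, with no role or order given; the kit is stranded, per the labels. Strand setting, annotation and multimapping: not given in the sources used here. Gene counts ran from 2.54 to 63.3 M and TE counts from 0.449 to 8.14 M per library. Of 53465 gene rows, 53274 had a symbol by Ensembl identifier (50604 by exact version); the TE table has 1146 rows. Overlapping and near-identical genes carry uncertain counts. Coordinates and sequences are from RefSeq (GRCm38.p6, mm10).

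Counts were fitted in edgeR 4.0.16 (R 4.3.3) with TMM, filterByExpr (minimum count 10, total 15) and the two-sided quasi-likelihood F test, blocking on tumour, with a J2 coefficient for each treatment, so all 12 tumours share 1 estimate of spread. The Benjamini-Hochberg threshold was 0.05. TE names were fitted in the joint table and adjusted over TE names alone. Per-tumour ratios used log2 CPM with a prior count of 2. Shares were tested by exact permutation over tumours. The fit was tested on simulated data. P-values measure the spread between tumours, which the labels call biological replicates. Intervals cover counting error only, and floors only that of the combination J2 counts. No pair of replicate libraries agreed within sampling noise (lowest chi-square per degree of freedom 11.5 over 24 pairs).

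The labels pair each J2 library with the input of its tumour: deviations from the group means correlated above 0.1 in 10 of 12 tumours. Named are the 12 largest called rises and falls with no overlap and mean log2 CPM of at least 0, Ern1, Xbp1, up to 3 members of each of 32 gene lists by p, and for TEs 6 rises and falls and 3 names of each of 16 families; others were named after their values were seen. Members and lists were chosen with earlier results of these data known, so lists get counts and medians, not tests. In all, 25 alternatives were tried, with DESeq2 1.42.0 and limma 3.58.1 among them. No sample column was left unused.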

Additional observations from a re-analysis of the deposited data

Results flagged for a closer look

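These values were marked because the response to ORIN1001 differed with and without docetaxel, by a test of the difference itself in the edgeR fit. It was called for 1350 genes. The largest, as the combination less docetaxel change minus the ORIN1001 less vehicle change (log2, SE), were mt-Te at 16.23 ± 2.76 (adjusted p = 0.0131; 9.29 without docetaxel 3), Meltf at 11.49 ± 2.78 (adjusted p = 0.0319; 7.77 and adjusted p = 0.0553 without docetaxel 3), Gnao1 at 11.46 ± 2.7 (adjusted p = 0.0256; 5.44 without docetaxel 3), Zfp972 at 9.74 ± 2.66 (adjusted p = 0.0396; 6.87 without docetaxel 3) and mt-Nd5 at 7.75 ± 2.19 (adjusted p = 0.045; 6.39 without docetaxel 3). Meltf had 1 count in each combination J2 library, so its value depends on the prior count and is no measured fold. In the first 3 of these, the docetaxel 3 input held most of the docetaxel input counts or the combination J2 libraries very few, and the part of that in the values was not tested.

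In the other direction stood P2ry10b at -8.60 ± 1.73 (adjusted p = 0.0186), Neu2 at -8.26 ± 1.96 (adjusted p = 0.0289) and Ldb2 at -7.48 ± 1.88 (adjusted p = 0.0333), whose fitted sizes depend on the prior count because the combination J2 libraries held no count of them. Snhg14 was at -4.75 ± 1.02 (adjusted p = 0.02; -4.84 without docetaxel 3) and Cd53 at -4.44 ± 0.88 (adjusted p = 0.016; -4.11 without docetaxel 3).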

How the results depend on the processing

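The 5315 gene calls ranged from 3173 (without docetaxel 2) to 7310 (without docetaxel 3) when 1 tumour was left out. They were 2188 with only the 12 combination and docetaxel libraries, 3184 with no replicate block and 3045 with the replicate number as a block, and within 1.5 times 5315 in the other settings. The 3 TE calls ranged from 0 to 823 when 1 tumour was left out (0 without combination 2, combination 3 or docetaxel 2, 1 without docetaxel 1, 8 without combination 1). They were 0 with the 12 libraries (783 there without docetaxel 3), 0 with the number as a block, 20 by DESeq2, 727 by limma-voom, 40 with total counts, 12 with no filter, and 136 with the TE table alone. With the TE table alone and without docetaxel 3, a setting chosen after seeing the data, they were 466, 249 higher and 217 lower.

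The 1350 genes whose ORIN1001 response differed ranged from 4 (without vehicle 1) to 3665 when 1 tumour was left out, with 649, 238, 269, 310, 221, 222 and 244 without combination 2, combination 3, docetaxel 2, ORIN1001 2, ORIN1001 3, vehicle 2 and vehicle 3. They were 11 with no replicate block, 0 with the number as a block, 2747 by DESeq2, 5564 by limma-voom, 860 with total counts and 2387 with no filter. The 0 such TE names ranged from 0 to 554, and were 5 by DESeq2, 413 by limma-voom, 2 with no filter, 8 with the TE table alone and 205 with that table and without docetaxel 3. The TE share difference of -0.39 turned to 0.32 with rRNA left out of the total and to 0.081 for the J2 share alone, with no replicate block.

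With total counts these called rises turned below 0: Rn7sk (-0.065), Mlkl (-0.23), Oasl1 (-0.43), Ifi27 (-0.31), H2-T23 (-0.30), Tap2 (-0.17), H2-Q4 (-0.070), Sesn2 (-0.25), Aurkb (-0.21), Krt18 (-0.13), Adar (-0.71), Mx2 (-0.049), Os9 (-0.053) and Kif2c (-0.26). Without docetaxel 3 these uncalled TE rises became called falls, the lowest values of their ranges when 1 tumour was left out: L3 (-0.92 to 2.65), MIRc (-1.22 to 2.32), IAPEY4_I-int (-0.94 to 1.72), MERVL-int (-0.72 to 2.6) and MT2B (-1.0 to 1.74). In the 12 libraries without docetaxel 3, L3 (-0.93), MIRc (-1.24) and MT2B (-1.02) did so too, and IAPEY4_I-int (-1.20) by limma-voom. The cause was not tested. Of 108 named genes called, 36 lost the call in at least 1 fit without a tumour. The 0.449 M TE counts of the shallowest library and the 3.27 M gene counts of docetaxel input 3 limit the precision of low features, and the exact permutation test of 3 tumours against 3 goes no lower than p = 0.1.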
